A study of Mus musculus with 30 samples.

Results

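The unsorted colon preparation comprises the cells released from the mouse colon and sequenced without a sort for the GFP reporter, from normal mice and from mice with colitis induced by DSS. It was chosen by its sample labels and makes up 6 of the 30 labelled libraries, with 3 from the normal colon and 3 from the DSS colon. Every animal was of the C57BL/6 strain with the genotype ColVI-cre, Rosa mTmG, so the normal group carried both alleles too. In mTmG animals, cells with Cre activity and their descendants lose a red membrane protein, Tomato, and gain GFP, and the Cre here used a collagen VI promoter. The isolation protocol was one for intestinal mesenchymal cells, and the unsorted libraries were not selected by either colour. DSS was given only to the DSS group, and no day or dose is used here. Treatment and library series coincide, because the normal and the DSS libraries were numbered as separate series, and their unsorted libraries were normalised and deposited separately. An effect of DSS and an effect of the series therefore cannot be told apart in any comparison below. The labels name no animals, so p-values measure only the spread between these samples.

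Dextran sulfate sodium injures the lining of the colon, and the colitis that follows brings neutrophils and monocytes from the blood into the wall. Mesenchymal cells such as fibroblasts and smooth muscle cells lie beneath the epithelium, beside endothelium and glia. The mesenchyme makes matrix and the Wnt and BMP signals that keep the crypts. Injured epithelium and activated mesenchyme release acute phase proteins, antimicrobial lectins and chemokines, and interferons switch on guanylate-binding proteins and antigen presentation in many cell types.

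RNA was measured by 3' sequencing, which counts 1 end per transcript, and the values are read counts that the authors normalised. Estimated depth was 3177000 and 3366000 reads in normal libraries 1 and 2 and 3206000 to 3842000 reads in the DSS libraries, and it was not resolved in normal library 3. The normal and DSS values were brought to a common scale by median ratios over the 15368 genes above 0 in all 6 libraries, and every level below is such a rescaled normalised count. Normal library 1 stood apart from the other normal libraries. In it 776 of 14108 genes were at least 4-fold from the mean log2 level of the other 2 libraries of its group. By the same measure the count was 522 and 272 in normal libraries 2 and 3 and 58 to 186 in the DSS libraries. Summed over 25 general epithelial genes its level was 2693, against 18494 and 12822 in the other normal libraries and 4324 to 10381 in the DSS libraries. Results that rest on this library are therefore given with and without it. Values of other single libraries are given where leaving them out ends a call.

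Of the 4 marker genes S100a8 passed the test, and Agr2, Adgre1 and Acta2 did not. S100a8 encodes a calcium-binding protein of neutrophils and lies at chromosome 3, 90668978 to 90670035, on mm10. Its level was 12.1, 4.22 and 11.7 in normal libraries 1 to 3 and 4397, 6009 and 3592 in DSS libraries 1 to 3. Every DSS library was far above every normal one, and the log2 fold change was 8.90 ± 0.41 (SE, n = 3 per group; limma with Benjamini-Hochberg adjustment over all genes, adjusted p = 1.8e-06). Agr2, a protein disulfide isomerase of secretory epithelium, had levels of 182, 638 and 785 in the normal and 370, 678 and 865 in the DSS libraries. The groups overlapped, with normal library 1 lowest, and the log2 fold change of 0.42 ± 0.55 did not pass the test (limma adjusted p = 0.71). Adgre1, which encodes the macrophage receptor F4/80, had levels of 93.8, 35.4 and 80.3 against 59.3, 88.9 and 64.2, with a log2 fold change of 0.11 ± 0.41 (adjusted p = 0.90). The groups of Adgre1 overlapped fully. Acta2, the smooth muscle actin of muscle and myofibroblasts, had levels of 2583, 3168 and 2901 in the normal and 1566, 1766 and 1247 in the DSS libraries. The groups did not overlap, yet the log2 fold change of -0.93 ± 0.34 missed the threshold (adjusted p = 0.16).

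**Figure D1:**
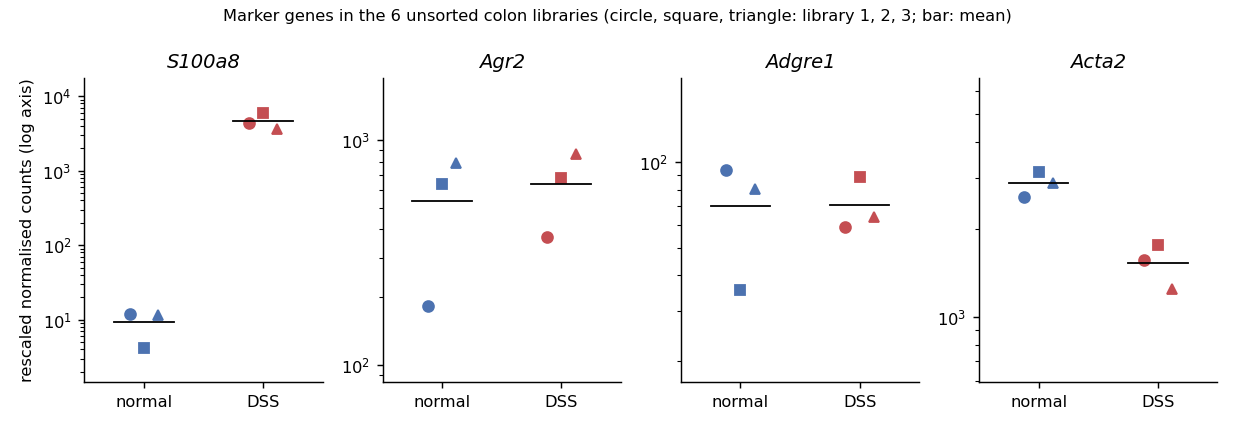
Levels of 4 marker genes (rescaled normalised counts, log axis) in each of the 3 normal and 3 DSS unsorted colon libraries, with the mean as a bar. S100a8 lies between 4.22 and 12.1 in normal and between 3592 and 6009 in DSS libraries, Acta2 is lower in each DSS library without passing the test, and Agr2 and Adgre1 overlap.

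The markers of the labelled tissue were present and mixed. Fibroblast markers were abundant, with Dcn, a matrix proteoglycan, at 6609 to 23767 in normal libraries and 4939 to 7402 under DSS, and Col1a1 at 3496 to 14623 and 2495 to 5491. Epithelial (Epcam, 182 to 1909 in normal libraries and 530 to 1209 under DSS), plasma cell (Jchain, 7575 to 34968 and 3568 to 4201) and red cell genes (Hba-a1, 4682 to 7886 and 556 to 1447) were also abundant. The preparation therefore held RNA of several cell types beside mesenchyme, in both groups. T cell markers were low, with Trac at 4.22 to 18.9 and 16.3 to 147, and mesothelial markers summed to 6 to 27 over 3 genes in every library, with none high enough to be tested. Col6a1, the gene that names the Cre driver in the series title, was at 409 to 750 in normal libraries and 166 to 472 under DSS, with overlapping groups (log2 fold change -1.05 ± 0.42, adjusted p = 0.19). Procr, which encodes CD201, was at 572 to 1710 and 965 to 1411 (0.39 ± 0.44, adjusted p = 0.66).

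Of 14108 genes tested, 562 (3.98%) passed an adjusted p of 0.05, of which 369 (2.62%) were higher and 193 (1.37%) lower in DSS libraries. The shares of 2.62% and 1.37% are the background for each list count below with all 6 libraries on the median-ratio scale. Without normal library 1 the shares were 5.33% higher and 5.5% lower, which are the background for list counts given without it. The number of genes that passed changed when 1 library was left out: it was 1532 without normal library 1 (10.8%), 352 without normal library 2 and 222 without normal library 3. It was 205, 181 and 185 without DSS libraries 1, 2 and 3. Each such fit has fewer libraries than the main fit and so less power. A call lost in it is therefore not shown to rest on the values of the library left out. With the values taken as deposited, where the median log2 fold change of all genes was -0.501, 221 genes passed as higher and 1087 as lower. With ratios over genes of at least 100 in every library, where that median was -0.148, the split was 273 and 228. Changes below are on the median-ratio scale described above, where the median of all genes was -0.03. Every DSS value was above every normal value for 13.6% of genes tested and below for 12.3%, so groups that do not overlap are frequent. A call is said below to have held where it passed in each of the 6 fits that left out 1 library. The 12 largest increases were Saa3, S100a8, Hp, S100a9, Reg3b, Cxcl5, Serpina3m, Ctrc, Ubd, Cpb1, Nos2 and Inhba, with log2 fold changes from 9.18 to 5.56, and each of these calls held. Serpina3m, a serine protease inhibitor of the acute phase, was at 5.17, 2.53 and 0.836 in normal and 263, 449 and 191 in DSS libraries. Ubd, a ubiquitin-like modifier induced by cytokines, was at 12.1, 2.53 and 4.18 against 501, 284 and 484. Both were at 12.1 or less in each normal library and at 191 or more in each DSS library, with log2 fold changes of 6.38 ± 0.51 and 6.05 ± 0.49 (limma adjusted p = 0.00011 for both). In bulk samples, more cells of a type and more RNA per cell cannot be told apart, and this applies to every gene and list below.

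**Figure D2:**
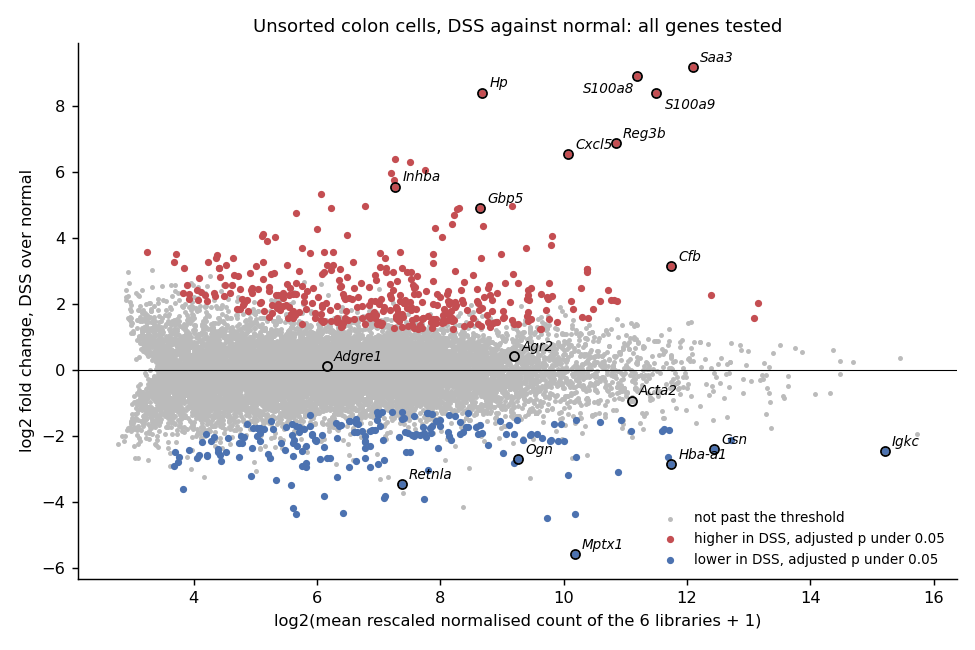
Mean level over the 6 libraries (x axis, log2 of the rescaled normalised count plus 1) against the log2 fold change of DSS over normal (y axis) for the 14108 genes tested. Red points are the 369 genes that passed as higher, blue points the 193 that passed as lower, and open circles mark genes named in the text, from Saa3 at 9.18 to Mptx1 at -5.59.

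Neutrophil genes had the largest share of members that rose among the lists. Of 21 tested members 14 passed, each as higher, with a median log2 fold change of 2.98 beside -0.03 over all genes tested. The count of 14 ranged from 9 without normal library 3 to 16 without normal library 1. S100a9, the partner of S100a8 in calprotectin, was at 29.3, 7.60 and 15.9 in normal and 6782, 6820 and 3637 in DSS libraries. Every DSS library exceeded every normal one by over 2 orders of magnitude, with a log2 fold change of 8.40 ± 0.46 (limma adjusted p = 7.6e-06). Fpr2, a receptor for formyl peptides that guides neutrophils to bacteria, was at 6.03, 11 and 1.67 against 344, 187 and 103. Its groups were well apart (4.96 ± 0.60, adjusted p = 0.0019). Hdc, the enzyme that makes histamine, was at 127, 111 and 110 against 2150, 1399 and 1401 (3.79 ± 0.33, adjusted p = 0.00015). The 3 normal libraries of Hdc were within a narrow range. Il1r2, the decoy receptor for interleukin 1, was at 2501, 1118 and 631 against 3641, 2647 and 3237. All DSS values were above the normal ones, but the change of 1.38 ± 0.48 did not pass (adjusted p = 0.14). The calls of S100a8, S100a9, Fpr2, Hdc, Mcemp1, Mmp9, Clec4e and Trem1 held. Csf3r, the receptor for the neutrophil growth factor, had a change of 2.29 ± 0.53 (adjusted p = 0.041) and lost its call without any 1 of DSS libraries 1, 2 and 3 and normal library 3. Pglyrp1 and Ly6g did not pass, at -0.37 and 2.37.

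Another 9 neutrophil genes of the list were in the DSS table and not in the normal table, so no fold change was computed for them. Of all 16763 genes in the DSS table, 470 were in it alone. These 9 genes are listed only because they were kept in the DSS table, and they are no test of the list. Mmp8, the neutrophil collagenase, was at 236, 595 and 179 in DSS libraries 1 to 3, and Wfdc21 at 150, 301 and 126. Ngp, a granule protein of immature neutrophils, was at 39.2, 453 and 38.5, and Camp, which encodes the antimicrobial peptide cathelicidin, at 2.37, 32.8 and 2.33. DSS library 2 was highest for each of these 4 genes. Stfa2, Stfa2l1 and Stfa3, which belong to a family of close copies, were also highest there, at 81.9, 32.8 and 44.4.

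Genes of inflammatory monocytes rose next most often. Of 20 tested members 11 passed, each as higher (6 without DSS library 1 to 12 without normal library 1), with a median of 1.91. Nos2, the inducible nitric oxide synthase, was at 0.861, 4.22 and 12.5 in normal and 431, 274 and 181 in DSS libraries. DSS library 1 was highest and normal library 1 lowest (5.77 ± 0.65, limma adjusted p = 0.0019). Sirpb1c, a myeloid signal-regulatory protein, was at 6.03, 0 and 4.18 against 152, 74.9 and 60.7 (4.75 ± 0.71, adjusted p = 0.0054). F10, which encodes coagulation factor X, was at 9.47, 6.75 and 10.9 against 171, 167 and 166, so that its 3 DSS libraries were nearly equal (4.10 ± 0.35, adjusted p = 0.00015). Ccr2, the chemokine receptor by which monocytes leave the marrow, was at 68.9, 27.0 and 48.5 against 300, 192 and 259 (2.43 ± 0.39, adjusted p = 0.0071). These 4 calls held, as did those of Fcgr4 and Ms4a4c. Il1b, the pyrogenic cytokine, was at 4670, 4271 and 1863 against 22823, 9620 and 11472. Its groups did not overlap (2.03 ± 0.48, adjusted p = 0.042), but its call was lost without any 1 of the libraries other than normal library 1. Ly6c2, a surface protein of inflammatory monocytes that endothelium and lymphocytes also carry, went the other way without passing: 1040, 1019 and 818 in normal and 530, 457 and 273 in DSS libraries (-1.23 ± 0.36, adjusted p = 0.082). Plac8 overlapped between the groups (0.48 ± 0.36). Chil3, a chitinase-like protein of alternatively activated macrophages and monocytes, was in the DSS table alone, at 75.9, 151 and 25.7.

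Of 20 tested genes of resident macrophages 2 passed, both as higher, beside 2.62% of all genes, and 6 had an unadjusted p under 0.05 as higher and 1 as lower. The median was 0.47. The 2 were Tyrobp, a signalling adaptor of myeloid cells, at 400, 229 and 339 against 1312, 1183 and 604 (1.64 ± 0.40, limma adjusted p = 0.044), and Itgam, which encodes CD11b and is carried by neutrophils and monocytes too, at 80.9, 60.8 and 75.3 against 418, 288 and 170 (1.92 ± 0.37, adjusted p = 0.019). Neither held: Itgam lost its call without DSS library 1 or 2 or normal library 3, and Tyrobp without each library other than normal library 1, where 5 members rose and 1 fell. A further entry under the symbol Itgam was in the DSS table alone, at 9.49, 11.7 and 7.0, and could not be tested. C1qa, a complement protein of tissue macrophages, was at 906, 359 and 258 against 784, 747 and 1365, with overlapping groups (1.08 ± 0.47, adjusted p = 0.22). Lyz2 overlapped as well (0.42 ± 0.48). Retnla, a secreted protein of alternatively activated macrophages that was not on the list, was among the 12 largest decreases. Its level was 246, 243 and 415 in normal and 45.1, 25.7 and 14.0 in DSS libraries, and its call held (-3.47 ± 0.44, adjusted p = 0.0019).

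Of 16 dendritic cell and MHC class II genes 3 passed, each as higher, beside 2.62% of all genes, with a median of 0.44 (1 without DSS library 3 to 5 without normal library 1). Ciita, the master activator of MHC class II transcription, was at 9.47, 21.9 and 14.2 in normal and 126, 98.3 and 140 in DSS libraries. Its groups were apart and its call held (2.97 ± 0.40, limma adjusted p = 0.0025). The class II genes themselves overlapped between the groups. H2-Aa was at 10793, 8108 and 12241 against 10438, 10503 and 5520 (-0.27 ± 0.41, adjusted p = 0.74), and Cd74, the invariant chain, at 788, 595 and 749 against 2300, 773 and 804 (0.68 ± 0.44). Itgax, which encodes CD11c, rose by 1.89 ± 0.32 (adjusted p = 0.0092) and lost its call only without DSS library 3. Batf3, a transcription factor of cross-presenting dendritic cells, rose by 1.67 ± 0.38 (adjusted p = 0.035), a call that passed with all 6 libraries and without normal library 1 alone. Among 24 tested T and NK cell genes 1 rose, beside 2.62% of all genes, with a list median of 0.80. It was Cd5, at 12.9, 6.75 and 7.53 against 59.3, 29.2 and 43.2 (2.15 ± 0.46, adjusted p = 0.028). Its call was lost without each library other than normal library 1. Ccl5, a chemokine of T and NK cells, was higher in each DSS library without passing (0.91 ± 0.37, adjusted p = 0.19).

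Summed over 19 B and plasma cell genes, the level was 189695, 110136 and 205559 in normal and 67262, 32912 and 25806 in DSS libraries. Of the 19 tested 3 passed, each as lower, with a median of -0.74, beside 1.37% of all genes that fell, while 6 of the 19 had a positive change and 2 had an unadjusted p under 0.05 as higher. The number that fell was 0 without DSS library 2 or 3 and 4 without normal library 1. Igkc, the kappa light chain constant region, was at 58971, 40048 and 93035 against 15974, 12517 and 6459. All normal values were above the DSS ones (-2.47 ± 0.48, limma adjusted p = 0.019), and the call was lost without DSS library 2, DSS library 3 or normal library 3. Tnfrsf17, the receptor BCMA of plasma cells, was at 296, 173 and 58.5 against 20.2, 14.0 and 30.4 (-2.76 ± 0.55, adjusted p = 0.023). Its call was lost without normal library 2 or any 1 DSS library. Iglc2, a lambda light chain region, also fell (-1.88 ± 0.39, adjusted p = 0.025), and its call was lost without DSS library 2, DSS library 3 or normal library 2. Igha, the IgA heavy chain, was at 91362, 58892 and 102969 against 45004, 15216 and 14160 and did not pass (-1.95 ± 0.51, adjusted p = 0.060). Mzb1, a chaperone of antibody secretion, overlapped (-0.67 ± 0.46).

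Of 7 tested erythroid and platelet genes 4 passed, each as lower, with a median of -1.86 (1 without DSS library 3). Hba-a1 was at 5399, 4682 and 7886 in normal and 1447, 556 and 649 in DSS libraries. No DSS value reached a normal one, and the call held (-2.86 ± 0.43, limma adjusted p = 0.0054). Hba-a2, a near-identical copy whose reads can be shared with Hba-a1, followed it (-2.65 ± 0.45, adjusted p = 0.0093), with its call lost without DSS library 2 or 3. Pf4, platelet factor 4, was at 351, 295 and 264 against 97.3, 118 and 40.9 (-1.94 ± 0.41, adjusted p = 0.025), and Hbb-bs fell by 1.86 on the log2 scale (adjusted p = 0.036). Pf4 lost its call without DSS library 1 or 3 or normal library 2 or 3, and Hbb-bs without any 1 DSS library or normal library 3. The part of red cell RNA in the other differences was not tested.

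**Figure D3:**
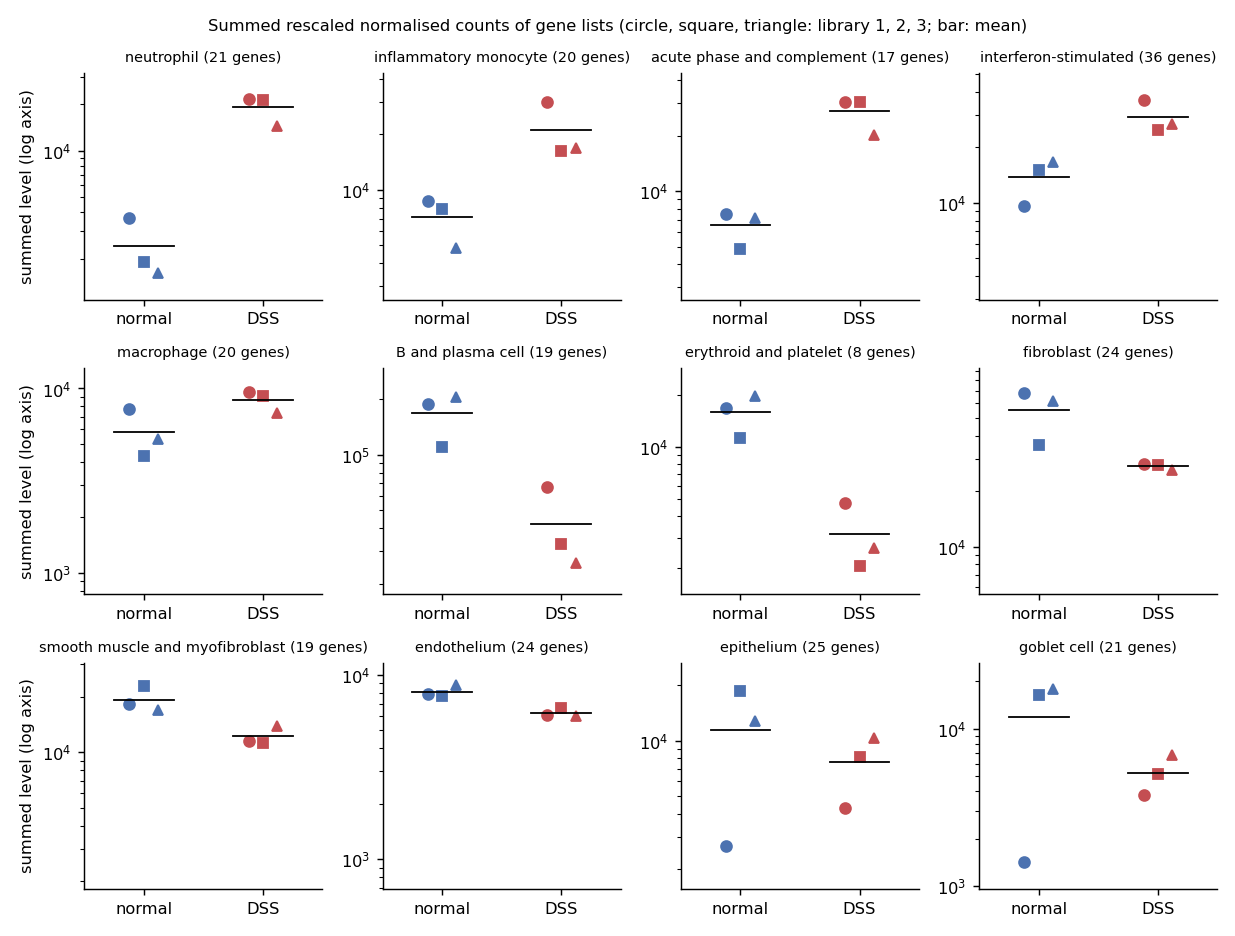
Summed levels of 12 gene lists (rescaled normalised counts, log axis) in each library, with the group mean as a bar. Neutrophil, inflammatory monocyte, acute phase and interferon-stimulated sums are higher in each DSS library, plasma cell, red cell and fibroblast sums are higher in each normal library, and the low epithelial and goblet cell sums of normal library 1 (2693 and 1420) stand apart from normal libraries 2 and 3.

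Acute phase and complement genes passed in 8 of 17 cases, each as higher, with a median of 1.90 (6 without DSS library 1 to 10 without normal library 1). Saa3, a serum amyloid A made in inflamed tissue, was at 6.03, 13.5 and 24.3 in normal and 11876, 10281 and 4129 in DSS libraries. It had the largest fold change of all genes that entered the naming rule, with groups apart by over 2 orders of magnitude (9.18 ± 0.53, limma adjusted p = 1.6e-05). Hp, the haemoglobin-binding protein haptoglobin, was at 0, 4.22 and 1.67 against 934, 754 and 761 (8.40 ± 0.53, adjusted p = 1.7e-05), so that its fold change rests on very few reads in the normal group. Ptx3, a long pentraxin, was at 34.4, 15.2 and 25.9 against 619, 682 and 367 (4.43 ± 0.39, adjusted p = 0.00016). The 3 DSS libraries were high for each of these genes. Cfb, complement factor B, was at 558, 1168 and 488 against 6702, 5412 and 6167 (3.15 ± 0.40, adjusted p = 0.0020). C3, the central complement protein, was at 1083, 392 and 602 against 2763, 2978 and 2583 (2.12 ± 0.41, adjusted p = 0.017). The calls of Saa3, Hp, Ptx3, Cfb, Serpina3g and Lcn2 held, while that of C3 was lost without any 1 DSS library or normal library 3. Serping1, the C1 inhibitor, overlapped between the groups (-0.63 ± 0.45).

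Of 16 tested antimicrobial genes 6 passed, each as higher, with a median of 1.23 (5 without normal library 2). Reg3b, an antibacterial lectin of epithelium, was at 17.2, 64.1 and 23.4 in normal and 3924, 3185 and 3816 in DSS libraries. The related lectin Reg3g was at 5.17, 31.2 and 40.1 against 530, 671 and 573. Both were high in each DSS library (6.88 ± 0.45, limma adjusted p = 1.7e-05, and 4.87 ± 0.62, adjusted p = 0.0039). Lcn2, which binds bacterial siderophores, was at 21.5, 27.0 and 56.9 against 674, 1352 and 349 (4.37 ± 0.51, adjusted p = 0.0019). The calls of Reg3b, Reg3g and Lcn2 held. Pigr, which carries IgA across the epithelium, was at 243, 1412 and 1838 against 285, 877 and 1126 (-0.39 ± 0.82), and Dmbt1 at 207, 1201 and 1210 against 813, 1998 and 1913 (1.12 ± 0.68). Normal library 1 was lowest for both, as it was for the epithelial sum.

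Chemokines changed in both directions. Of 32 tested, 6 rose and 2 fell, beside 2.62% and 1.37% of all genes, with a median of 0.57, and the number that rose was 3 without normal library 3. Cxcl5, a neutrophil attractant, was at 6.03, 38.8 and 26.8 in normal and 3834, 1210 and 1323 in DSS libraries. Its groups were apart and its call held (6.53 ± 0.68, limma adjusted p = 0.0019). Cxcl9 and Cxcl11, interferon-induced attractants of T cells, held as well, at 4.06 ± 0.39 (adjusted p = 0.00032) and 3.18 ± 0.53 (adjusted p = 0.0082). Cxcl9 was at 109, 74.3 and 101 against 2474, 973 and 1642. Cxcl13 and Ccl19 are the attractants of B cells and of T cells with dendritic cells in lymphoid tissue. Cxcl13 was at 51.7, 6.75 and 21.7 against 375, 737 and 247 (4.29 ± 0.67, adjusted p = 0.0099), a call lost without DSS library 1 or normal library 3. Ccl19 was at 2.58, 4.22 and 2.51 against 287, 29.2 and 52.5, with most of the rise in DSS library 1 (4.27 ± 0.73, adjusted p = 0.011), a call lost without normal library 3. Ccl2, the monocyte attractant, was at 945, 547 and 559 against 4727, 2644 and 1772 (2.09 ± 0.43, adjusted p = 0.024), with its call lost without DSS library 1 or 2 or normal library 2 or 3. Cxcl1 and Cxcl2, 2 further neutrophil attractants, had overlapping groups (0.84 ± 0.43 and 0.13 ± 0.45). Ccl4 was among the 2 that fell, at 4445, 6111 and 4829 against 2437, 818 and 1498 (-1.82 ± 0.43, adjusted p = 0.042), a call lost without DSS library 2 or 3 or normal library 2 or 3. The other was Pf4.

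Of 24 cytokine genes tested, 9 rose and 1 fell, with a median of 1.34, and the 9 became 2 without DSS library 2 and 13 without normal library 1. Inhba, the activin A subunit, was at 6.89, 4.22 and 3.35 in normal and 413, 120 and 371 in DSS libraries. Il11, an interleukin 6 family cytokine of stromal cells, was at 39.6, 112 and 110 against 904, 835 and 1027. Both calls held (5.56 ± 0.50, limma adjusted p = 0.00018, and 3.52 ± 0.42, adjusted p = 0.0015), and DSS library 2 was lowest for Inhba. Csf3, the neutrophil growth factor G-CSF, was at 11.2, 0.844 and 16.7 against 85.4, 77.2 and 127 (3.70 ± 0.74, adjusted p = 0.027), a call lost without any 1 DSS library. Il6 was at 428, 325 and 305 against 1285, 1102 and 648 (1.48 ± 0.36, adjusted p = 0.047), and Ifng at 6.03, 0 and 5.85 against 74.8, 17.5 and 39.7 (3.40 ± 0.82, adjusted p = 0.045). Each DSS value was above each normal value for both, but both calls were lost without each library other than normal library 1. Il10, an anti-inflammatory cytokine, was the member that fell, at 760, 375 and 279 against 87.8, 135 and 80.5 (-2.12 ± 0.41, adjusted p = 0.018), with its call lost without DSS library 1 or 3. Il1rn, the interleukin 1 receptor antagonist, was at 2152, 3209 and 1595 against 5193, 6791 and 5992 and did not pass (1.42 ± 0.38, adjusted p = 0.065). Tnf overlapped (0.11 ± 0.40, adjusted p = 0.90).

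Interferon-stimulated genes passed in 9 of 36 cases, each as higher, with a median of 1.11 (4 without DSS library 1 to 14 without normal library 1). Among them were Gbp5, Gbp4, Gbp7, Isg15, Zbp1, Gbp6, Igtp and Irf1. To show promoter sequence of members that rose, the bases before the start of transcription are shown for 5 of them, taken from RefSeq on GRCm38.p6, with each stretch running 5′ to 3′ on the gene's strand up to the base before the start. Capitals mark matches, on either strand, to an interferon response motif (GAAA, any 2 bases, GAAA, a pair of half-sites of the interferon-stimulated response element), to TTCNNNGAA (the gamma-activated site) and to an NF-kB-like motif (GGGA, any 2 bases, TTCC), and matches of different motifs did not overlap. The stretches lie at chr3:142496684-142496933 (plus strand) for Gbp5, chr3:142530086-142530335 (plus) for Gbp7, chr11:58199306-58199555 (plus) for Igtp, chr4:156200819-156201068 (minus) for Isg15 and chr11:53769764-53770013 (plus) for Irf1.
Gbp5: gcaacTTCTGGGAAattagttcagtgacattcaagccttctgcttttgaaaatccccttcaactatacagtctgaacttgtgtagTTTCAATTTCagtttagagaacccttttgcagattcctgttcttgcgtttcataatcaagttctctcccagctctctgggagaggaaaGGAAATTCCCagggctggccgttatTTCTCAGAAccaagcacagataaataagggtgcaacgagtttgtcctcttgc
Gbp7: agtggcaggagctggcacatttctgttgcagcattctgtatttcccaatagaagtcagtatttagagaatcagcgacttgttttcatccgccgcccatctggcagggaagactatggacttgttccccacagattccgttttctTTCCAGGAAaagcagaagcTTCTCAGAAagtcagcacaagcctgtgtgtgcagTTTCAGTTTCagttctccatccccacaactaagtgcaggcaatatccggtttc
Igtp: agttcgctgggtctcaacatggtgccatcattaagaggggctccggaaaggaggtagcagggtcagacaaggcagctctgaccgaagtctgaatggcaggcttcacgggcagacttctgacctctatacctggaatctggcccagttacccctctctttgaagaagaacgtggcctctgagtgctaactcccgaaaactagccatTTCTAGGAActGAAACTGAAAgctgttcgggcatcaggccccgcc
Isg15: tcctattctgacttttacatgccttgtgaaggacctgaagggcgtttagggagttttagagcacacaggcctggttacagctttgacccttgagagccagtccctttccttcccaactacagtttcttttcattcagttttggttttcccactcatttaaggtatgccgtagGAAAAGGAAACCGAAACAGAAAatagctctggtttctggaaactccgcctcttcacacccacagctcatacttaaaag
Irf1: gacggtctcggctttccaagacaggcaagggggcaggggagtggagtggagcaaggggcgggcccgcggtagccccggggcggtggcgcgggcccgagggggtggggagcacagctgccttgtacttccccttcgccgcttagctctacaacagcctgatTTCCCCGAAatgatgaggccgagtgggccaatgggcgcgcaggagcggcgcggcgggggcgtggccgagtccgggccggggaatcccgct

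The match to the interferon response motif lay 165 bases before the start in Gbp5, 53 in Gbp7 and 34 in Igtp, and Isg15 held 3 matches at 78, 72 and 66 bases that overlap each other. TTCNNNGAA was found at 2 places each in Gbp5 and Gbp7 and at 1 place each in Igtp and Irf1. A second window of Irf1, at chr11:53770223-53770472 (plus strand), is not shown and held 0 matches to each of the motifs. Of 32851 windows of 250 bases before a start, 2.98% held the interferon response motif, 7.02% TTCNNNGAA and 1.21% the NF-kB-like motif. Among the 9 genes that rose, 5 had windows, 6 in all, and the interferon response motif and TTCNNNGAA were each in 4 of these 6. Among the 22 tested interferon-stimulated genes with windows that did not pass, the interferon response motif was in 13 of 25 windows (52.0%) and TTCNNNGAA in 6 of 25 (24.0%). The letters that mark the list were thus also present in members that were not called.

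Gbp5, a guanylate-binding protein that acts against intracellular bacteria, was at 18.1, 14.3 and 47.7 in normal and 894, 443 and 967 in DSS libraries. Its groups were far apart (4.91 ± 0.47, limma adjusted p = 0.00032). Gbp7 was at 90.4, 87.8 and 86.1 against 561, 415 and 431 (2.39 ± 0.30, adjusted p = 0.0019), and Gbp4 at 50.8, 115 and 91.2 against 1061, 484 and 419 (2.87 ± 0.43, adjusted p = 0.0053). The calls of Gbp5, Gbp7 and Gbp4 held, and the normal libraries of Gbp7 were close to each other. Isg15, a ubiquitin-like protein, was at 469, 169 and 304 against 1683, 952 and 1533 (2.22 ± 0.43, adjusted p = 0.017), with its call lost without DSS library 1 or 3 or normal library 3. Igtp, an immunity-related GTPase, was at 188, 190 and 130 against 846, 515 and 487 (1.83 ± 0.35, adjusted p = 0.016), lost without DSS library 1 or 2 or normal library 3. Irf1, a transcription factor induced by interferon gamma, was at 3480, 4726 and 4849 against 13342, 11725 and 13855 (1.59 ± 0.36, adjusted p = 0.036), lost without each library other than normal library 1. Iigp1 was higher in each DSS library without passing (1.10 ± 0.36, adjusted p = 0.12), and Ifitm3 overlapped (-0.37 ± 0.49). Of 16 genes of MHC class I presentation, 2 rose, beside 2.62% of all genes, with a median of 0.59. Tap1, the peptide transporter, was at 264, 228 and 258 against 1528, 791 and 1063, and its call held (2.12 ± 0.35, adjusted p = 0.0078). Psme2, a proteasome activator subunit, passed narrowly and lost its call without each library other than normal library 1. B2m and H2-K1 overlapped between the groups, at 0.60 ± 0.49 and 0.58 ± 0.52.

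Of 19 NF-kB feedback and adhesion genes 7 passed, each as higher, with a median of 0.89 (1 without DSS library 1). Tnfaip2, a gene induced by TNF, was at 2150, 1496 and 1873 in normal and 11404, 6915 and 8477 in DSS libraries. Its call held (2.26 ± 0.37, limma adjusted p = 0.0077). Vcam1, the adhesion molecule for leukocytes, was at 742, 488 and 519 against 3019, 2654 and 1822 (2.09 ± 0.36, adjusted p = 0.0098), with its call lost without DSS library 1 or 2. Cd274, which encodes the checkpoint ligand PD-L1, was at 530, 197 and 130 against 1070, 1022 and 1097, with DSS values close to each other (2.15 ± 0.47, adjusted p = 0.030). That call was lost without each library other than normal library 1. Nfkbia, the inhibitor of NF-kB, was higher in each DSS library and did not pass (0.68 ± 0.39, adjusted p = 0.36).

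Of 24 fibroblast genes 4 passed, each as lower, beside 1.37% of all genes, with a median of -0.97. The 4 became 1 without DSS library 2 and 5 without normal library 1, where 1 also rose. With the values as deposited they became 12, beside 1087 of all 14251 genes tested that fell. Ogn, the matrix proteoglycan osteoglycin, was at 937, 982 and 1266 in normal and 180, 188 and 121 in DSS libraries. The groups were tight and apart, and the call held (-2.71 ± 0.33, limma adjusted p = 0.0019). Gsn, the actin-severing protein gelsolin, was at 15873, 6777 and 5605 against 1172, 2012 and 1705 (-2.41 ± 0.45, adjusted p = 0.016). Clec3b, tetranectin, was at 2461, 916 and 1005 against 293, 242 and 379 (-2.13 ± 0.42, adjusted p = 0.021). Normal library 1 was highest for both, and both calls were lost without any 1 DSS library. Postn, the matrix protein periostin, was at 1667, 1819 and 1476 against 629, 297 and 266 (-2.16 ± 0.39, adjusted p = 0.012), lost without DSS library 2 or 3. Sparc, another matrix protein, overlapped (-0.12 ± 0.41), and Pdgfra, the receptor that marks fibroblasts, was at 609, 335 and 389 against 491, 581 and 532 (0.31 ± 0.34, adjusted p = 0.64). Of 22 collagens 1 rose and 2 fell, beside 2.62% and 1.37% of all genes, with a median of -0.31. Col18a1 was at 288, 222 and 276 against 845, 691 and 773 (1.56 ± 0.31, adjusted p = 0.022). Col15a1 was at 758, 1444 and 2580 against 396, 303 and 270 (-2.15 ± 0.44, adjusted p = 0.024), and Col14a1 fell by 1.64 on the log2 scale (adjusted p = 0.033). All 3 calls were lost without each library other than normal library 1. Col3a1 and Col1a2, which with Col1a1 make the main fibrils, were near 0 or did not pass (-0.14 ± 0.41 and -0.57 ± 0.35).

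Of 22 tested genes for Wnt, BMP and other growth factor signals, 6 rose and 1 fell, beside 2.62% and 1.37% of all genes, while the median was -0.03, as over all genes tested. The 6 became 0 without DSS library 2 and 7 without normal library 1. With the values as deposited 4 rose and 6 fell, beside 221 and 1087 of all 14251 genes tested. Grem1, a secreted BMP antagonist of the stroma around crypts, was at 210, 85.2 and 217 in normal and 706, 903 and 783 in DSS libraries. Igfbp5 was at 442, 346 and 478 against 1889, 2072 and 1415. The groups were apart for both (2.33 ± 0.40, limma adjusted p = 0.0097, and 2.08 ± 0.34, adjusted p = 0.0076), and both calls were lost only without DSS library 2. The Wnt amplifiers Rspo1 and Rspo3 were low genes, at 5.17, 4.22 and 3.35 against 21.4, 32.8 and 26.8 for Rspo1 and 20.7, 10.1 and 14.2 against 66.5, 50.3 and 64.2 for Rspo3. They rose by 2.41 ± 0.50 (adjusted p = 0.023) and 1.98 ± 0.40 (adjusted p = 0.022), and both calls were lost in at least 4 of the 6 fits, without any 1 DSS library or normal library 3 in either case. Sfrp1, a Wnt antagonist, and Igf1 rose by 1.62 ± 0.38 (adjusted p = 0.039) and 1.61 ± 0.34 (adjusted p = 0.027), with calls that passed with all 6 libraries and without normal library 1 alone. Igfbp6 fell, at 262, 116 and 164 against 65.3, 26.9 and 18.7 (-2.38 ± 0.48, adjusted p = 0.022), lost without DSS library 2 or 3 or normal library 3. Of 16 telocyte genes 1 rose, beside 2.62% of all genes. It was Nrg1, an ERBB ligand, at 72.3, 53.2 and 79.5 against 275, 232 and 226 (1.84 ± 0.31, adjusted p = 0.0094), lost only without DSS library 2. Bmp4 and Bmp5 overlapped, at -1.41 ± 0.53 and -0.33 ± 0.37.

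Of 25 matrix proteases and inhibitors 5 passed, each as higher, beside 2.62% of all genes, with a median of 0.55 (4 without normal library 2). Mmp3, stromelysin 1, was at 21.5, 59.9 and 27.6 in normal and 1387, 753 and 1187 in DSS libraries. Mmp10, stromelysin 2, was at 23.2, 32.1 and 22.6 against 224, 232 and 238. The lowest DSS library was over 6 times the highest normal one for both (4.98 ± 0.42, limma adjusted p = 0.00013, and 3.12 ± 0.32, adjusted p = 0.00048). Mmp9, a gelatinase carried by neutrophils, was at 61.1, 28.7 and 30.1 against 265, 412 and 254 (2.98 ± 0.38, adjusted p = 0.0020), and Timp1, a protease inhibitor, at 31.0, 18.6 and 50.2 against 408, 211 and 173 (2.96 ± 0.44, adjusted p = 0.0050). The calls of Mmp3, Mmp10, Mmp9 and Timp1 held, and that of Adam8 was lost without normal library 2 or any 1 DSS library. Mmp2 overlapped (-0.52 ± 0.36). Of 19 smooth muscle genes 2 passed, both as lower, beside 1.37% of all genes, with a median of -0.40 (1 without normal library 2). Hhip, a hedgehog-binding protein, was at 549, 496 and 468 against 134, 154 and 105, with tight groups and a call that held (-1.95 ± 0.31, adjusted p = 0.0067). Tpm1, a tropomyosin, was at 4050, 7109 and 3460 against 1285, 1287 and 1260 (-1.86 ± 0.38, adjusted p = 0.023), lost without normal library 2 or any 1 DSS library. Of 24 endothelial genes 1 fell, beside 1.37% of all genes, with a median of -0.60. It was Ackr1, a chemokine scavenger of venules, at 469, 390 and 1334 against 99.7, 201 and 110 (-2.26 ± 0.48, adjusted p = 0.028), lost without normal library 3 or any 1 DSS library. Plvap, a protein of fenestrated vessels, overlapped (-0.11 ± 0.36). Of 14 glial and neuronal genes 1 fell, beside 1.37% of all genes. It was S100b (-1.86 ± 0.43, adjusted p = 0.040), lost without normal library 3 or any 1 DSS library. Of 9 pericyte genes 0 passed in limma, where 5 had an unadjusted p under 0.05. With the values as deposited the numbers that fell were 7 collagens, with 0 that rose, 6 smooth muscle, 6 endothelial, 3 glial and neuronal and 2 pericyte genes. In that setting 1087 of all 14251 genes tested fell and the median of all genes was -0.501. Falls were not equally frequent in all lists there, with 0 of 25 general epithelial and 12 of 24 fibroblast genes.

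**Figure D4:**
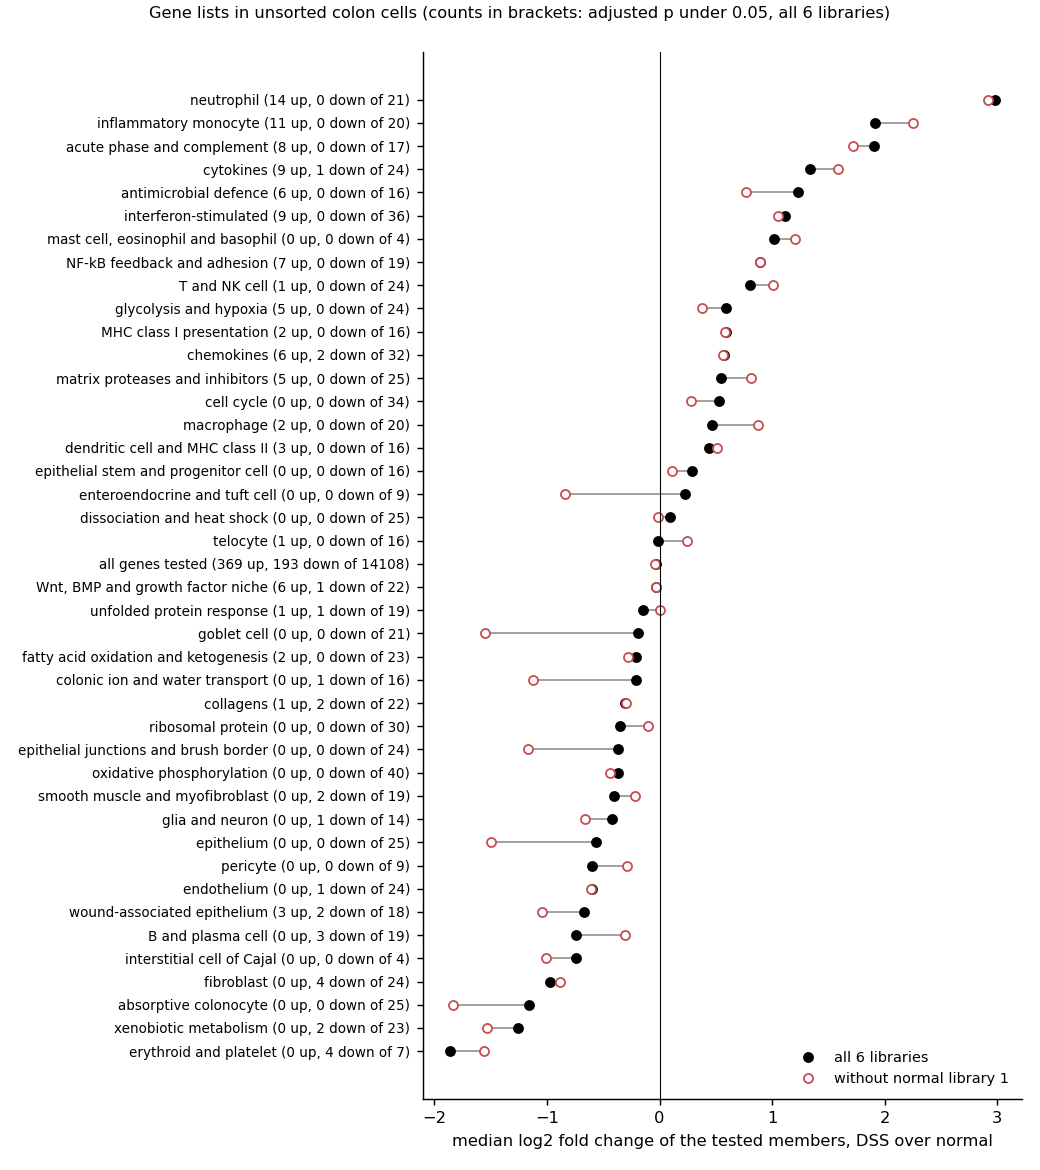
Median log2 fold change, DSS over normal, of the tested members of each gene list (x axis), with all 6 libraries (filled) and without normal library 1 (open); brackets give the members that passed upward and downward. Neutrophil (2.98), inflammatory monocyte (1.91) and acute phase genes (1.90) lie at the top with either set of libraries, and the epithelial lists move furthest to the left when normal library 1 is left out (goblet cell, -0.19 to -1.55).

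Epithelial lists depended most on normal library 1. With all 6 libraries in the main fit 0 of 25 general epithelial, 0 of 25 absorptive colonocyte and 0 of 21 goblet cell genes passed in limma, with medians of -0.56, -1.16 and -0.19, and 1, 6 and 4 had an unadjusted p under 0.05, each as lower. Also with all 6 libraries, 0, 2 and 3 fell with replicate number as a block, beside 189 of 14108 genes. With the values as deposited 0, 3 and 3 fell, beside 1087 of 14251 genes. Without normal library 1, the numbers that fell were 10 of 25, 12 of 25 and 10 of 21, with medians of -1.50, -1.83 and -1.55, beside 5.50% of all genes that fell and 5.33% that rose. Muc2, the main mucin of goblet cells, was at 245, 5451 and 7898 in normal and 1000, 1293 and 2030 in DSS libraries. Normal library 1 was below all DSS libraries and the other two normal libraries above them. Its log2 fold change was -0.67 ± 1.21 with all libraries (limma adjusted p = 0.79) and -2.25 without normal library 1 (adjusted p = 0.0061). Lypd8, which keeps bacteria from the colon surface, was at 279, 3014 and 1731 against 190, 641 and 379 and changed by -1.66 (adjusted p = 0.34) with all libraries and by -2.67 (adjusted p = 0.0062) without that one. Zg16, a lectin of the mucus, was at 176, 2057 and 1208 against 286, 551 and 600, with -0.74 (adjusted p = 0.66) and -1.79 (adjusted p = 0.021). Over all 18 alternatives tried the adjusted p ran from 0.00613 to 0.997 for Muc2, from 0.00619 to 0.596 for Lypd8 and from 0.0207 to 0.992 for Zg16, and each passed only without normal library 1. Epcam did not pass in either fit (0.16 and -0.81). The same library moved the junction and brush border list from 0 to 6 of 24 that fell, the ion and water transport list from 1 to 5 of 16 and the xenobiotic list from 2 to 8 of 23. Stem and progenitor genes passed in 0 of 16 cases in both fits (1 with an unadjusted p under 0.05). Mptx1, a pentraxin of the crypt that was the largest decrease, was at 262, 3458 and 3114 against 13.1, 97.1 and 17.5, where normal library 1 was again lowest of the normal group. Its change was -5.59 ± 1.12 (adjusted p = 0.041), and its call was lost without each library other than normal library 1.

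Genes listed for injured epithelium changed both ways, with 3 of 18 that rose, 2 that fell and a median of -0.67, beside 2.62% and 1.37% of all genes that rose and fell. The 3 were Il11, which stroma makes, the alarmin Il33, at 63.7, 39.7 and 61.1 against 184, 218 and 155 (1.76 ± 0.33, limma adjusted p = 0.016), and Ereg, an EGF receptor ligand, at 403, 377 and 310 against 1094, 1219 and 861 (1.53 ± 0.33, adjusted p = 0.028). Those that fell were Hbegf, another such ligand, at 451, 918 and 556 against 85.4, 233 and 211 (-1.92 ± 0.44, adjusted p = 0.037), and Ecm1 (-1.94 ± 0.35, adjusted p = 0.012). Of the 5 calls that of Il11 held. Il33 lost its call without any 1 DSS library, Ereg and Hbegf without each library other than normal library 1, and Ecm1 without DSS library 1 or 3 or normal library 3. Ly6a, which marks a repair state of epithelium and is carried by stroma and endothelium too, was higher in each DSS library without passing (0.87 ± 0.36, adjusted p = 0.20).

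Of 24 glycolysis and hypoxia genes 5 rose, beside 2.62% of all genes, with a median of 0.59 (1 without DSS library 1). Slc16a3, the lactate exporter MCT4, was at 93.8, 74.3 and 105 in normal and 1765, 736 and 1234 in DSS libraries, with groups far apart and a call that held (3.69 ± 0.38, limma adjusted p = 0.00049). Hif1a, the oxygen-sensitive transcription factor, was at 158, 245 and 236 against 1291, 723 and 697 (2.05 ± 0.37, adjusted p = 0.012), lost without DSS library 1. The glycolytic enzymes Ldha and Aldoa overlapped between the groups (-0.10 ± 0.42 and 0.14 ± 0.44). Of 40 oxidative phosphorylation genes 0 passed with all libraries (5 with an unadjusted p under 0.05), with a median of -0.37, and 6 fell without normal library 1. Of 34 cell cycle, 30 ribosomal protein and 25 dissociation and heat shock genes 0 passed in limma, with medians of 0.53, -0.35 and 0.09, where 6, 2 and 7 had an unadjusted p under 0.05. Without normal library 1 the first and the last had 1 and 3 that fell and the ribosomal list 1 that rose. These counts and the 6 oxidative phosphorylation genes stand beside 5.5% of all genes that fell and 5.33% that rose in that fit. Jun, Junb and Egr1, immediate early genes that tissue digestion can raise, were at 0.54 ± 0.37, 0.62 ± 0.45 and 0.09 ± 0.40 and did not pass. In the unfolded protein response list Chac1 fell (-2.83 ± 0.52, adjusted p = 0.014; lost without DSS library 2 or 3 or normal library 3) and Hspa5, the chaperone BiP, did not pass (0.36 ± 0.41).

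Of the 12 largest decreases 10 were gene models with near-identical copies. Gm26870, a lincRNA model at chromosome 9, 3000282 to 3038313, was at 3856, 655 and 445 in normal and 39.2, 65.5 and 37.4 in DSS libraries (-4.48 ± 0.73, limma adjusted p = 0.015). Gm10800, at chromosome 2, 98666547 to 98667301, was at 4639, 1211 and 866 against 77.1, 133 and 52.5 (-4.36 ± 0.60, adjusted p = 0.0048). Normal library 1 was highest for both, as it was for Gm10720, Gm10717 and Gm10715. Without it Gm26870 changed by -3.53 and Gm10800 by -3.63, and both still passed. Gm26870 lost its call without DSS library 1 or 3. The models on chromosome 9 lie within or beside the span of Gm26870, and short reads cannot be assigned to one of such copies, so the values are uncertain. How reads with several matches were counted in each series is not given in the sources used here.

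Pancreatic enzyme genes were met among the largest increases and were then listed after their values had been seen. Ctrc, chymotrypsin C, was at 2.58, 2.53 and 3.35 in normal and 657, 273 and 147 in DSS libraries, and Cpb1, carboxypeptidase B1, at 11.2, 0.844 and 2.51 against 430, 248 and 182. Both were highest in DSS library 1, and both calls held (6.30 ± 0.51, limma adjusted p = 0.00011, and 5.97 ± 0.64, adjusted p = 0.0011). A further 20 genes of the 29 on that list were in the DSS table and not in the normal one, as were 470 of all 16763 genes of the DSS table. Among the 20 were Amy2a2, a pancreatic amylase with close copies, at 4825, 593 and 360, and Ctrb1, chymotrypsinogen B1, at 681, 689 and 149. Sycn, a protein of zymogen granules, went against them, at 63.7, 2671 and 1260 in normal and 64.1, 77.2 and 47.9 in DSS libraries (-3.26 ± 1.23, adjusted p = 0.19). Without normal library 1 its change was -4.87 (adjusted p = 3.7e-05, the lowest of a range up to 0.447 over the alternatives). The pancreas is not a labelled tissue, and the part of its RNA in other differences was not tested.

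The DSS response of the unsorted cells was then set against that of the sorted colon cells of the same 2 series, which have 3 libraries each as GFP-negative (Tomato) and GFP-positive cells. The difference of the 2 responses passed for 14 of 14062 genes (0.0996%) against GFP-negative cells and for 16 of 13968 genes (0.115%) against GFP-positive cells, by limma over 12 libraries with Benjamini-Hochberg adjustment. With no adjustment, 1014 and 1276 genes had a p under 0.05. The response was higher in unsorted cells for 8 of the 14 (0.0569% of genes tested) and lower for 6 (0.0427%), and higher for 7 of the 16 (0.0501%) and lower for 9 (0.0644%). It was higher for 16 of 24 in the latter test when columns were scaled to equal totals. The 2 tests share the 6 unsorted libraries, so the values are side by side and not independent. Without normal library 1 the counts were 66 (0.468%) and 55 (0.393%), and with each of the other unsorted libraries left out they were 2 to 9 and 10 to 16. The count against GFP-negative cells fell by more than 1.5 times without normal library 2 or 3 (5 and 9) and without DSS library 1, 2 or 3 (2, 4 and 8), and that against GFP-positive cells without DSS library 1 (10).

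Each fit was rescaled over its own 12 libraries, so unsorted levels differ slightly from those above. The response of Mmp13, collagenase 3, was larger in sorted cells than in the unsorted preparation. In unsorted cells it was at 343, 194 and 308 in normal and 447, 301 and 363 in DSS libraries. In GFP-negative cells it went from 4.97, 4.94 and 0 to 113, 142 and 203, and in GFP-positive cells from 14.9, 5.96 and 15.7 to 541, 412 and 778. The difference of the responses, unsorted minus sorted, was -5.09 ± 0.75 on the log2 scale against GFP-negative (adjusted p = 0.016) and -5.11 ± 0.50 against GFP-positive cells (adjusted p = 0.00023). Inhba had a smaller response in GFP-positive cells, from 115, 82.5 and 119 to 212, 354 and 265, than in unsorted cells (difference 4.18 ± 0.57, adjusted p = 0.0033), and its normal level was higher there than in unsorted cells. F10 was at 6.94, 6.95 and 3.93 and at 8.84, 7.88 and 6.86 in normal and DSS GFP-positive cells, a smaller response than in unsorted cells (3.71 ± 0.52, adjusted p = 0.0038). Slc16a3 went from 84.5, 76.1 and 69.1 to 173, 188 and 139 in GFP-negative cells, a smaller response than in unsorted cells (2.58 ± 0.43, adjusted p = 0.028). Against the other sorted population the differences of these genes did not pass: against GFP-negative cells that of Inhba was 2.96 ± 0.69 (adjusted p = 0.19) and that of F10 3.12 ± 0.68 (adjusted p = 0.13), and against GFP-positive cells that of Slc16a3 was 3.32 ± 0.62 (adjusted p = 0.054, and 0.0103 to 0.163 over the alternatives). Cpb1 was low in sorted cells, at 8.85 to 18.8 in GFP-negative and 5.91 to 22.6 in GFP-positive DSS libraries, and its difference was 5.60 ± 0.95 (adjusted p = 0.028) and 6.52 ± 0.86 (adjusted p = 0.0033). The differences of Mmp13, Inhba, F10, Rgs5 and Cpb1 against GFP-positive cells passed in all 6 fits that left out 1 unsorted library. Against GFP-negative cells, that of Mmp13 was lost without DSS library 1 or 2, that of Slc16a3 without normal library 2 or DSS library 1 or 3, and that of Cpb1 without each library other than normal library 1. Rgs5, a pericyte gene, went from 82.2, 80.5 and 201 to 1501, 1392 and 1031 in GFP-positive cells, while unsorted cells were at 2261, 1570 and 1360 and at 1066, 1672 and 2034 (difference -3.68 ± 0.51, adjusted p = 0.0038). Against GFP-negative cells, at 154 to 420 in normal libraries and 526 to 1034 under DSS, the difference of Rgs5 was -1.29 ± 0.57 and did not pass (adjusted p = 0.66).

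For most of the genes described above the difference did not pass. The neutrophil gene S100a8 was at 98.4, 141 and 137 in GFP-negative and 133, 40.4 and 34.3 in GFP-positive DSS libraries, both far below the 3592 to 6009 of unsorted DSS libraries. Its change in unsorted cells was larger by 3.04 ± 0.69 and 4.29 ± 0.90, which did not pass (limma adjusted p = 0.19 and 0.10). With a pseudocount of 5 both differences of S100a8 passed (0.000858 and 0.000536), and the highest adjusted p over the alternatives was 0.420 and 0.242. Saa3 reached 6419 to 9022 in GFP-negative and 3624 to 4831 in GFP-positive DSS libraries, with differences of -0.95 ± 0.80 and 0.67 ± 0.60 (adjusted p = 0.88 and 0.77). Cxcl5, Cxcl9, Gbp5, Cfb and Mmp3 likewise had differences between -1.43 and 0.72 that did not pass. Grem1 was at 931 to 1045 in normal and 3153 to 3851 in DSS GFP-negative libraries, above its unsorted levels in both groups, and the difference was 0.53 ± 0.46 (adjusted p = 0.88). Igkc was at 683 to 8167 in normal GFP-negative libraries against 40048 to 93035 in unsorted ones, and Muc2 at 3.98 to 18.8 against 245 to 7898. Myh11, smooth muscle myosin, was at 534, 4116 and 1368 in normal and 288, 255 and 160 in DSS unsorted libraries, and its difference against GFP-negative cells was -2.72 ± 0.88 (adjusted p = 0.45, and 0.0449 to 0.650 over the alternatives, lowest without normal library 1).

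**Figure D5:**
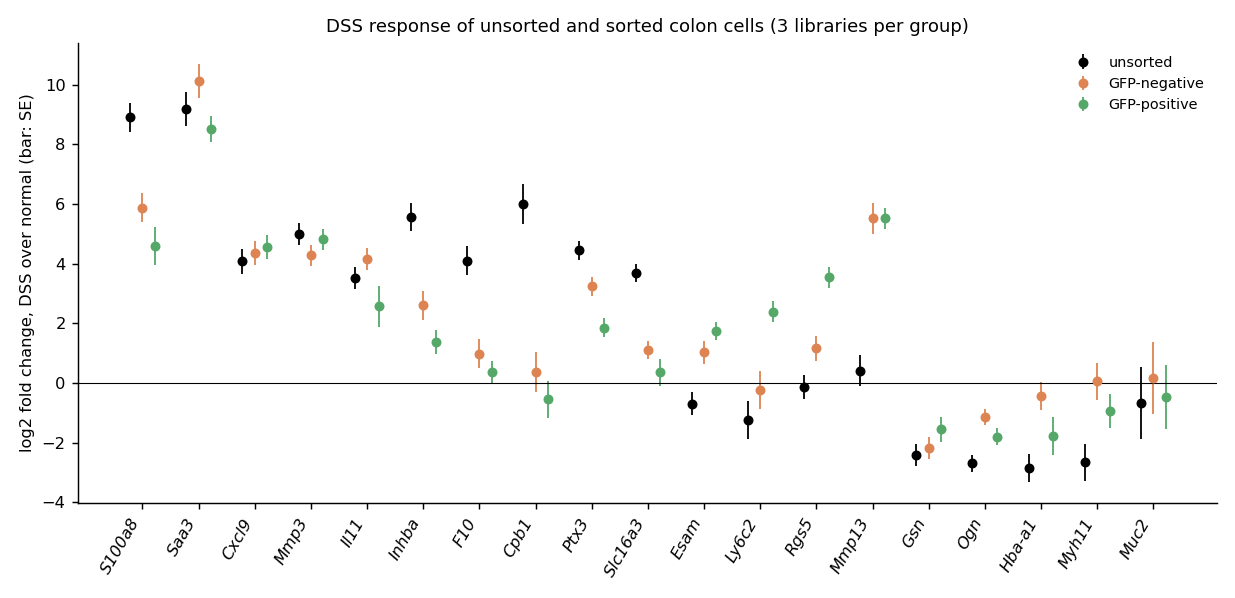
Log2 fold change of DSS over normal (y axis, bars are standard errors) for named genes in unsorted, GFP-negative and GFP-positive colon cells, 3 libraries per group. The cell groups lie together for genes such as Saa3, Cxcl9 and Mmp3, apart for Mmp13 (0.41 unsorted against 5.51 in both sorted groups) and Cpb1 (5.98 unsorted against 0.38 and -0.55).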

How the data were processed

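Libraries of 3' ends were sequenced on an Ion Torrent instrument, per the labels' protocols, and the submitters' processing notes name TopHat2, Bowtie2, DESeq and the mm10 build. Which counting program, annotation, strand setting and versions were used is not given in the sources used here. The deposited values are read counts per gene that the authors normalised and rounded, and are treated as a score, not as counts. Normal and DSS unsorted columns are held in separate tables. The sorted columns used for the difference of responses come from tables that hold normal and DSS libraries together.

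Normal and DSS columns were brought to a common scale by their median ratio to the gene-wise geometric mean over the genes above 0 in all libraries (multiplied by 0.836 to 0.861 and 1.167 to 1.187), since the tables were normalised separately. Every level that sets the 2 groups side by side rests on this step. Genes reaching a group mean of 10 were tested on log2(value + 1) with limma 3.58.1 (mean-variance trend, robust) in R 4.3.3, with Benjamini-Hochberg adjustment over all genes tested and a threshold of 0.05. Fold changes are on the log2(value + 1) scale, which understates the change of low genes. The difference of responses was tested the same way over 12 libraries. The procedure was tested on simulated data in which no library stood apart from its group, so that test does not cover a case such as normal library 1.

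Genes named are the 4 markers, Col6a1 and Procr, the 12 largest increases and decreases with non-overlapping groups and a mean of at least 50 in the higher group, and, in each of 42 lists, the 4 highest and the 3 most changed each way. Some genes that the rule names are not reported here. Other list members given for contrast were chosen after their values were seen. The members and lists were chosen with earlier results of these data known. Alternatives were other scalings, pseudocounts, filters and variance models, a fold threshold, the replicate block, the second pair of tables and leaving out each library. No library pair held identical values. Reads of near-identical copies and of overlapping or antisense genes could be shared.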

Additional observations from a re-analysis of the deposited data

Results flagged for a closer look

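The response to DSS differed between unsorted and GFP-negative colon cells for 14 genes, by the limma test of the difference itself. Those on a gene list are named here. The lists were chosen with earlier results of these data known, so being on a list is a rule for naming and not a result. Mmp13, a collagenase (-5.09), had the larger log2 change in GFP-negative cells. Slc16a3, the lactate exporter (2.58), Ms4a4c, a monocyte gene (5.18), and Cpb1, carboxypeptidase B1 (5.60), had it in unsorted cells. Ms4a4c was at 26.1, 7.62 and 5.08 in normal and 190, 95.2 and 130 in DSS unsorted libraries, and at 6.96, 6.92 and 6.91 and at 1.97, 1.99 and 0.988 in GFP-negative ones. Its call was lost without DSS library 1.

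The response differed between unsorted and GFP-positive cells for 16 genes, and those on a list are named by the same rule. Mmp13 (-5.11), Lcn2 (-4.61), Rgs5 (-3.68), Ly6c2 (-3.64) and Esam (-2.46) had the larger log2 change in GFP-positive cells, and Ptx3 (2.57), F10 (3.71), Inhba (4.18) and Cpb1 (6.52) in unsorted cells. Lcn2 was listed at 0 in the 3 normal GFP-positive libraries and at 317, 925 and 426 in the DSS ones, so the size of its difference depends on the pseudocount, and with a pseudocount of 5 it was -2.47 and did not pass (limma adjusted p = 0.18). Ly6c2 went from 8.92, 23.8 and 23.6 to 108, 99.5 and 79.4 in GFP-positive cells and Esam from 68.4, 47.7 and 107 to 232, 275 and 212, while unsorted cells were lower in DSS libraries for both. Ptx3 went from 46.6, 39.7 and 51.1 to 147, 201 and 158 in GFP-positive cells. The call of Esam was lost without normal library 2 or any 1 DSS library, and that of Ptx3 without normal library 2 or DSS library 1 or 2. The 2 tests share the 6 unsorted libraries.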

How the results depend on the processing

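The call count of DSS against normal was 562 genes, and it was 1308 with the values as deposited and 181 to 1532 when 1 library was left out, highest without normal library 1. Of the 1532, 559 were shared with the 562. Under the other alternatives the count was 431 to 648. Calls of list genes numbered 121, and 51 to 234 with 1 library left out. With the values as deposited 70 list genes rose and 97 fell, against 95 and 26. The 14 genes whose response differed from that of GFP-negative cells became 25 with a pseudocount of 5 and 2 to 66 with 1 unsorted library left out. The 16 against GFP-positive cells became 25 and 10 to 55. Of 211 gene results followed, 0 of 3486 values under an alternative were of a reversed call, 313 lost a call and 31 gained one. The 3486 include the fold threshold, which reused the same fit and could not change the call of a gene here. They also include the second pair of tables, which held the same values for the unsorted libraries. Lost calls were most frequent without DSS library 1, 2 or 3 (55, 57 and 55) or normal library 3 (44). Where leaving out 1 library or using another setting changed a call, the cause was not tested.

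The replicate numbers were not treated as a pairing. Deviations from the group means correlated across genes by 0.073, 0.087 and -0.088 in normal and DSS libraries of the same number, and normal library 3 correlated best with DSS library 2 (0.045). With the replicate block 500 genes passed for DSS against normal, 433 of them shared with the 562, and 14 and 19 passed for the differences from GFP-negative and GFP-positive cells, and 121 list genes passed.

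Depth and 3 libraries per group limit what low genes can show. Genes in 1 table alone could not be tested: 1645 were in the normal table only and 470 in the DSS table only.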

Other observations

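Lipid handling, detoxification and ion transport genes held a few calls in the unsorted colon. Of 23 fatty acid oxidation genes 2 rose, beside 2.62% of all genes, with a median of -0.21. Angptl4, an inhibitor of lipoprotein lipase, was at 55.1, 17.7 and 20.1 in normal and 153, 202 and 173 in DSS libraries (2.65 ± 0.43, limma adjusted p = 0.0078), and Plin2, which coats lipid droplets, at 282, 349 and 342 against 999, 784 and 772 (1.38 ± 0.32, adjusted p = 0.037). Of 23 xenobiotic and 16 transport genes 2 and 1 fell, beside 1.37% of all genes. The 2 xenobiotic genes that fell were Gstp1, a glutathione transferase, at 273, 127 and 154 against 61.7, 46.8 and 40.9 (-1.81 ± 0.37, adjusted p = 0.023), and Nqo1, a quinone reductase (-1.56 ± 0.38, adjusted p = 0.044). The transport gene that fell was Kcnn4, a calcium-activated potassium channel, at 201, 146 and 182 against 70.0, 70.2 and 74.7 (-1.28 ± 0.30, adjusted p = 0.042). In the unfolded protein response list 1 of 19 rose and 1 fell, beside 2.62% and 1.37% of all genes, with a median of -0.15. The gene that rose was Hyou1, a chaperone of the endoplasmic reticulum (1.46 ± 0.36, adjusted p = 0.047). The call of Angptl4 was lost without DSS library 2 and that of Gstp1 without normal library 3 or any 1 DSS library, while the other 4 passed with all 6 libraries and, among the fits that left out 1 library, without normal library 1 alone.

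Of 4 mast cell, eosinophil and basophil genes, 9 enteroendocrine and tuft cell genes and 4 genes of interstitial cells of Cajal, 0 passed in limma, and 3, 0 and 2 had an unadjusted p under 0.05. In the order of those lists the medians were 1.02, 0.23 and -0.74. C4bp and Henmt1, chosen after their values were seen, were in the normal table and not in the DSS table, and were high in normal library 1 alone, at 937, 10.1 and 8.36 and at 515, 0.844 and 1.67.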
